A study of Mus musculus with 6 samples.

Results

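Transcription factor genes of mesoderm, heart, blood, muscle and mesenchyme were followed through a step in which none of those tissues is made, from neural stem cells (NSCs) to neurons. A list of 42 genes was used, holding the T-box family, the Gata family, basic helix-loop-helix (bHLH) factors, Snail, homeobox and Runx factors and Wt1. Of these, 28 were named in at least 1 of the authors' 4 tables that pair genes with peaks, out of 18778 genes in those tables. Another 14, among them Tbx6, Gata1, Hand1, Mesp2, Tcf15, Myf5, Myog, Snai1 and Meox1, were named in none and were not scored. The cells were mouse, of strain C57BL/6. NSCs came from embryonic stem cells, were kept with FGF2 and EGF and were used at passages 25 to 30, at day 0. Neurons were their progeny at day 11, after 4 days in a first medium and 7 days in a second, sorted for RedStar, a red fluorescent protein under the promoter of Tau. Chromatin from each cell type was precipitated once for H3K4me3 and once for H3K27me3, and each cell type had 1 input library. There were no replicates, so no difference below has a replicate check or a test.

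T-box proteins bind DNA through a shared domain named after the T gene, also called Brachyury, and pattern the early mesoderm, heart and limbs. Gata factors are zinc finger proteins of blood, endoderm and heart, and the bHLH factors named here drive mesenchyme, heart or skeletal muscle. In neural cells such genes are textbook targets of Polycomb repressive complexes, one of which lays down H3K27me3, while H3K4me3 marks promoters that are active or poised. Carrying both is often called bivalent, although a mixed population cannot show that the marks share a nucleosome.

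The libraries set limits on what could be called. Reads inside called peaks numbered 983266 for neuron H3K4me3 and between 3161819 and 3623654 in the other 3 libraries. The 2 cell types shared 397 H3K4me3 peaks of identical start and end, and over these the ratio of neuronal to NSC reads was 0.399 for the precipitate and 0.775 for input. For H3K27me3 the ratios over 114 such peaks were 0.981 and 0.784. Against markers, all 6 NSC marker genes (Nes, Sox2, Olig2, Hes5, Vim, Fabp7) had an H3K4me3 peak at the start site in both libraries. Of 5 scored neuronal markers, Mapt, Dcx and Tubb3 had one in neurons and 2 had none. Of 4 scored fibroblast or mesenchyme markers, 3 endothelial, 1 blood and 2 muscle markers, none had H3K4me3 in neurons, and Kdr, an endothelial receptor gene, had it in NSCs. The 4 embryonic stem cell markers were in none of the tables.

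A gene was called marked when any listed peak lay within 1000 bp of its start site on the mm9 build. H3K27me3 was called at 20 of the 28 regulators in NSCs and at 19 in neurons, against 19.2% and 17.9% of all genes in the tables. H3K4me3 was called at 15 in NSCs and 6 in neurons, against 70.4% and 61.7%. Both marks were present at 13 in NSCs (8.53% of all genes) and at 4 in neurons (4.59%). Both marks in NSCs and H3K27me3 alone in neurons were seen at 8 genes (597 of all 18778). These were Tbx21, Gata2, Gata3, Hand2, Twist2, Mesp1, Alx1 and Alx4. With equal numbers of peaks by fold, Gata2, Gata3, Hand2 and Alx1 were no longer among the genes called for H3K4me3 in NSCs and not in neurons. H3K27me3 alone in both cell types was the course of 7 (1437 of all), which were Tbx1, Tbx3, Tbx5, Tbx20, Gata4, Gata5 and Myod1. Gata6, Snai2 and Wt1 had both marks throughout (591 of all), and Twist1 had H3K4me3 alone throughout (10301 of all). T went from both marks to neither (79 of all), Tbx2 from both to H3K4me3 alone (334) and Tbx18 from H3K4me3 alone to both (198). Each was the only one of the 28 on its course. Tbx15, Meox2, Prrx1 and the 3 Runx genes had neither mark at the start site in either cell type (16.7% of all genes). These calls use the authors' full peak lists. The authors' gene tables name 1 peak per gene and often a farther one. By that peak alone H3K27me3 stood at 8 of the 28 in NSCs (7.74% of all genes) and 7 in neurons (5.09%), and both marks at 4 (2.32%) and 2 (0.831%). At an FDR under 1e-20 both marks stood at 7 in NSCs and 0 in neurons, and H3K4me3 at 2 in neurons. The shares of all genes at that FDR were not computed, so these counts are not a result about the regulators. By the gene tables H3K4me3 was at 10 in NSCs (58.5%) and 4 in neurons (51.6%), and 6 of those 10 were without it in neurons (18.2%).

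**Figure D1:**
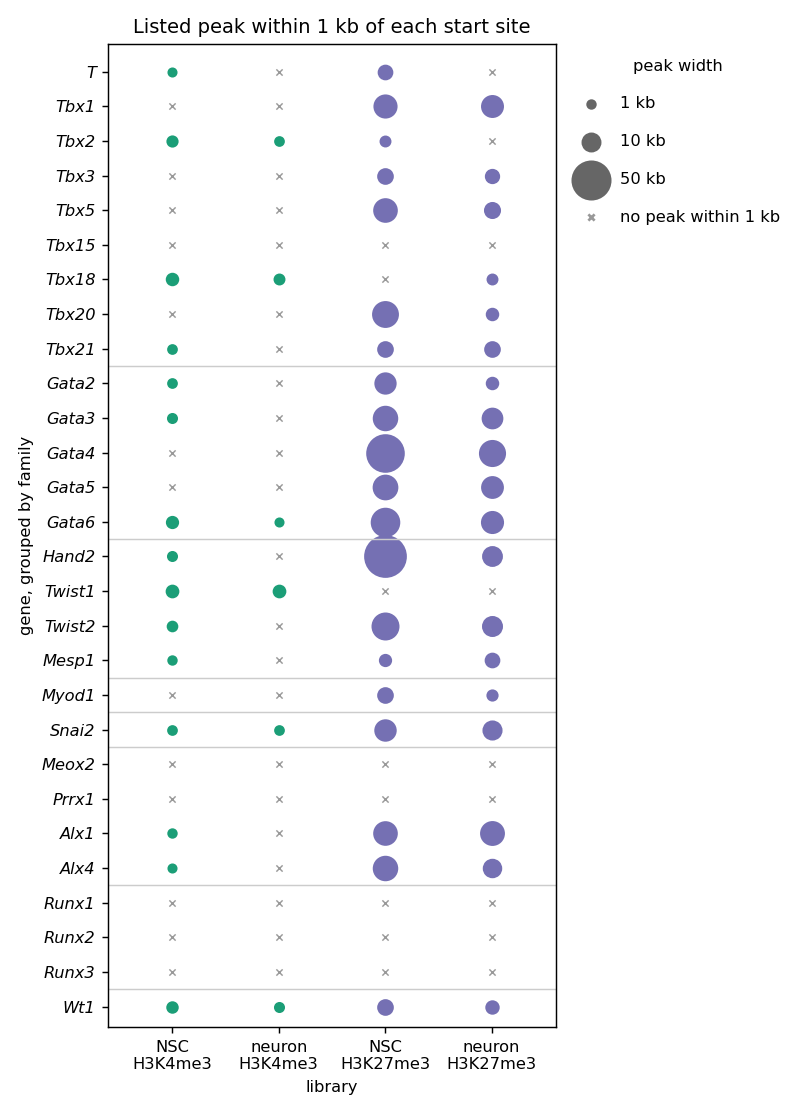
Each row is 1 of the 28 scored genes and each column 1 library. A filled dot is a listed peak within 1000 bp of the start site, its area rising with the peak's width, and a cross is no such peak. The H3K27me3 columns hold 20 and 19 dots and the H3K4me3 columns 15 and 6.

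The promoters of 5 genes stand for these courses. Each line gives the 250 bases before the start site, 5′ to 3′, from RefSeq on GRCm38.p6, with the CpG dinucleotides in capitals. They are Twist1 (H3K4me3 alone throughout; chr12:33957421-33957670, plus strand), Tbx20 (H3K27me3 alone throughout; chr9:24774304-24774553, minus strand), Twist2 (both marks, then H3K27me3 alone; chr1:91801211-91801460, plus strand), T (both marks, then neither; chr17:8434173-8434422, plus strand) and Tbx18 (H3K4me3 alone, then both; chr9:87731261-87731510, minus strand).
Twist1: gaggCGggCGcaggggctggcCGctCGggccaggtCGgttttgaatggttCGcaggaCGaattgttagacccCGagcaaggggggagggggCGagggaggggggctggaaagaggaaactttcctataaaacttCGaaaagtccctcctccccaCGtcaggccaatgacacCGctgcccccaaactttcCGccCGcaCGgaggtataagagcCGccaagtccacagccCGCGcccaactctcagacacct
Tbx20: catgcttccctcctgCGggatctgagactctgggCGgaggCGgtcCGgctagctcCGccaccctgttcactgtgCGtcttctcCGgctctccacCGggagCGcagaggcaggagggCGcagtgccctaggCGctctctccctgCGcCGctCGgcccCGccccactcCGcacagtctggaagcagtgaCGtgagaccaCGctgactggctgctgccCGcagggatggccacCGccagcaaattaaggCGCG
Twist2: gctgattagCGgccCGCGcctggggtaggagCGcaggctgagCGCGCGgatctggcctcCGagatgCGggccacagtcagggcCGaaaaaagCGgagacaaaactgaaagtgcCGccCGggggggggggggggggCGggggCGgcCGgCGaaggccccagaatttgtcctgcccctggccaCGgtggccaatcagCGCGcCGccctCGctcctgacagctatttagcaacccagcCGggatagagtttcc
T: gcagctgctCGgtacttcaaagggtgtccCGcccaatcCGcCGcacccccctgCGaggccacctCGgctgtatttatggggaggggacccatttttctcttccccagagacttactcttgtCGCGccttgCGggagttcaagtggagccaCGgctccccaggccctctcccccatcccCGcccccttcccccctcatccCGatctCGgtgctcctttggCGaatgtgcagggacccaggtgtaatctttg
Tbx18: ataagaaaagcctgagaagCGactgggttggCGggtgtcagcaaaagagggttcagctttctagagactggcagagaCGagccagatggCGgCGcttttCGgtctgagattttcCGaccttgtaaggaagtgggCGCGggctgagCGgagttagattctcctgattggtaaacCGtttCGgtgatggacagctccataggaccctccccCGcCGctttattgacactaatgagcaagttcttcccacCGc
The 5 windows hold 18, 22, 23, 14 and 15 CpGs in the order shown, above the median of 6 over all 32851 promoter windows in the table. Over the 21 windows found for 17 of the scored genes the number ran from 0 to 38.

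Among the T-box genes 9 were scored. T, the founding member of the family and a gene of the primitive streak, was the only one of the 28 with both marks in NSCs and neither in neurons, a course taken by 79 genes in all. In NSCs its H3K4me3 peak was 800 bp wide, lay 89 bp from the start site and held 35 immunoprecipitated reads over 5 input reads. The deposited fold over input was 7.17, with an exact 95% interval of 2.80 to 23.4 from counting error alone. Its NSC H3K27me3 domain, on chromosome 17 from 8623600 to 8628799, held 101 reads over 29, a fold of 4.87 (3.19 to 7.63). The nearest neuronal peaks were 61689 bp away for H3K4me3 and 327489 bp away for H3K27me3. No neuronal peak of either mark was therefore listed within 50 kb of T.

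Tbx2 and Tbx18, of heart, limb and epicardial development, kept H3K4me3 in neurons. At Tbx2 the H3K4me3 peak held 167 reads over 25 in NSCs and 39 over 7 in neurons. Its H3K27me3 call rested on a 2000 bp NSC peak of 43 reads over 23, ending 54 bp from the start site, at a fold of 2.61 (1.54 to 4.54). The nearest neuronal H3K27me3 peak was 251254 bp away. Tbx18 came next to Twist1 in H3K4me3 reads, with 311 reads over 26 across 3200 bp in NSCs and 103 over 16 across 2000 bp in neurons. Its H3K27me3 call in neurons had the lowest fold of the 19, a 2000 bp peak of 43 reads over 26 at 905 bp from the start site, with a fold of 1.74 (1.04 to 2.94). Tbx18 lay just inside the 1000 bp limit, and Tbx1 just outside it for H3K4me3, with an NSC peak 1114 bp away that held 26 reads over 6.

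The other T-box genes with a mark were under H3K27me3 in both cell types. Tbx1, of the pharyngeal arches and outflow tract, had a 16000 bp domain in NSCs with 491 reads over 118 and a 14200 bp domain in neurons with 344 over 77. At Tbx5, a heart and forelimb gene, the domain was 16800 bp with 463 reads over 96 in NSCs and 6600 bp with 152 over 31 in neurons. Tbx5 also had 4 H3K4me3 peaks over its gene body in NSCs, which covered 5400 bp, and none in neurons. Tbx3 lies 163994 bp from Tbx5 on chromosome 5, and the 2 genes had separate domains. The Tbx3 domain was 6200 bp in NSCs and 4800 bp in neurons. Tbx20, of the heart muscle, went from a 20600 bp NSC domain with 579 reads over 177 to a 3200 bp neuronal one with 76 over 16. Over that NSC domain neurons had 5 separate peaks that covered 67.0% of it. Tbx21, the T-bet gene of T helper cells, had a 6200 bp domain in each cell type, and its 1200 bp H3K4me3 peak, of 46 reads over 8, was called in NSCs only.

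The 5 scored Gata genes had H3K27me3 in both cell types, against 19.2% of all genes in NSCs and 17.9% in neurons. Gata4, a heart and endoderm gene, had an NSC domain of 46200 bp on chromosome 14 from 63845800 to 63891999, with 2175 reads over 400 and a fold of 7.60 (6.83 to 8.48). That width exceeded 95.6% of the domains at marked genes in NSCs. Neurons had 2 peaks there, which covered 97.4% of it, and the one at the start site was 21000 bp wide. The 2 held 1317 reads over 303, counted over their whole lengths, which reach beyond the NSC domain. Gata6, of the same tissues, had 1117 reads over 176 in a 25600 bp NSC domain and 414 over 79 in a 14400 bp neuronal one. The NSC fold of 8.87 (7.56 to 10.5) at Gata6 exceeded that of 99.2% of marked genes. Gata6 alone of the family kept H3K4me3, with 85 reads over 19 across 3000 bp in NSCs and 26 over 3 across 800 bp in neurons. Gata5 had domains of 18600 and 14000 bp and no H3K4me3 in either cell type.

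Gata2 and Gata3, of blood progenitors and T cells and also of some neurons in the brain stem and midbrain, had both marks in NSCs. The NSC H3K4me3 peak of Gata2 held 49 reads over 19, a fold of 2.64 (1.53 to 4.75), and that of Gata3 held 34 over 12, a fold of 2.90 (1.47 to 6.15). Both peaks were near the bottom of their list, since 1.76% and 2.32% of marked genes had a lower fold. The nearest neuronal H3K4me3 peak was 112329 bp from the Gata2 start site and 10462 bp from that of Gata3. For H3K27me3, Gata3 had 539 reads over 135 across 18200 bp in NSCs and 337 over 91 across 12400 bp in neurons. Gata2 had 172 over 119 across 13200 bp in NSCs and 75 over 15 across 3200 bp in neurons, 72 bp from its start site. The NSC fold was 5.58 (4.61 to 6.79) at Gata3 and 2.02 (1.59 to 2.57) at Gata2, while in the neuronal list it was 3.89 (3.08 to 4.96) at Gata3 and 5.25 (2.99 to 9.84) at Gata2. The neuronal intervals overlap.

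Of the 8 listed bHLH genes of mesenchyme, heart and early mesoderm, 4 were scored. All 4 had H3K4me3 in NSCs, as did 70.4% of all genes, and 4 genes are too few to set against that share. Hand2, of the heart, limb bud and sympathetic neurons, had the widest H3K27me3 domain of the set. It spanned 57600 bp in NSCs on chromosome 8, from 59780200 to 59837799, with 2307 reads over 486 and a fold of 6.63 (6.01 to 7.33). In neurons the domain at the start site was 11200 bp with 361 reads over 75, and 4 neuronal peaks together covered 95.1% of the NSC domain. Those 4 held 1571 reads over 399, counted over their whole lengths, which reach beyond the NSC domain. The neuronal peaks there were separate calls with little uncovered length between them. Its NSC H3K4me3 peak was weak, with 34 reads over 12 at 220 bp from the start site.

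Twist1 and Twist2, related regulators of mesenchyme, stood apart from each other. Twist1 had the most H3K4me3 reads of the set in each cell type, a 3400 bp peak with 427 reads over 29 in NSCs and a 3400 bp peak with 129 over 31 in neurons. By fold it was not the highest, with 15.1 in NSCs, under Alx4, and 4.13 in neurons, under Gata6, Tbx18, Tbx2 and Wt1. Its nearest H3K27me3 peaks were 31737 bp away in NSCs and 530937 bp away in neurons. Twist2 carried a 22600 bp H3K27me3 domain in NSCs with 574 reads over 298 and an 11400 bp one in neurons with 301 over 119. It lies on chromosome 1, where input reads per kb in NSC H3K27me3 peaks were 1.46 times the median autosome, and their part in the call was not tested. The NSC H3K4me3 peak of Twist2 held 93 reads over 19, and neurons had their nearest one 5439 bp away with 24 over 4. Mesp1, of cardiac mesoderm, had an NSC H3K4me3 peak of 49 reads over 5 that was not called in neurons. Its H3K27me3 domain was 3000 bp with 85 reads over 18 in NSCs and 5200 bp with 121 over 33 in neurons, and so was wider there, unlike most of the set.

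Myod1, the master regulator of skeletal muscle, was the only scored myogenic gene. It had no H3K4me3 in either cell type and H3K27me3 in both, with 114 reads over 51 across 6200 bp in NSCs and 46 over 12 across 2200 bp in neurons. Snai2, a Snail repressor of neural crest and mesenchyme, had both marks throughout. Its H3K4me3 peak was 1200 bp wide in each cell type, with 84 reads over 11 in NSCs and 30 over 14 in neurons. The neuronal fold of that peak was 2.13 (1.09 to 4.34), and 1.51% of marked genes had a lower one. At an FDR under 1e-20 it was no longer called. The H3K27me3 domain of Snai2 held 276 reads over 120 in NSCs and 215 over 92 in neurons. Wt1, of kidney and gonad development, likewise had both, with H3K4me3 reads of 87 over 9 and 34 over 6. The H3K27me3 domain of Wt1 was 6200 bp in NSCs and 4000 bp in neurons, yet within 50 kb of the start site neurons had 24.0 kb under H3K27me3 and NSCs 12.1 kb.

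The homeobox genes Alx1 and Alx4, of the craniofacial mesenchyme, had narrow H3K4me3 peaks in NSCs that were not called in neurons. That of Alx1 held the fewest reads of the 15, 26 over 7, across 1000 bp. That of Alx4 held 38 reads over 2 across 800 bp. The Alx4 fold of 19.5 has an interval of 5.03 to 166, so its rank among folds rests on 2 input reads. Alx1 kept an H3K27me3 domain of 16800 bp with 434 reads over 130 in NSCs and 17200 bp with 404 over 145 in neurons. Alx4 had 18200 bp with 381 reads over 155 and 9400 bp with 195 over 58.

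H3K4me3 was called in NSCs and not in neurons at 9 of 15 regulators, against 13.6% of all genes marked in NSCs. None of the other 13 gained it, against 2.81%. All 9 also had H3K27me3 in NSCs, and so the nearer background is the 42.2% of genes with both marks in NSCs that were without H3K4me3 in neurons, beside 9 of 13 here. The other 2 H3K4me3 genes, Twist1 and Tbx18, had no H3K27me3 in NSCs and kept H3K4me3 (9.62% of such genes did not). At 12 of the 13 genes with both marks, the H3K4me3 peak lay wholly inside the H3K27me3 domain, the exception being Tbx2, with 27.3% of it inside. The share over all genes with both marks was not computed. Median NSC widths at marked regulators were 1400 bp for H3K4me3 and 16400 bp for H3K27me3. Peaks of such unlike widths at the same start site will often nest, so this is not a result about the regulators.

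At 8 of the 9 the NSC peak held fewer reads than at any of the 6 genes that kept H3K4me3. NSC reads ran from 26 to 93 with a median of 38 in the 9, and from 84 to 427 with a median of 127 in the 6. Twist2, at 93, was the only one of the 9 to reach the range of the 6. Of the 6, Snai2, Gata6 and Wt1, at 84, 85 and 87, lay within the range of the 9. NSC widths overlapped too, at 800 to 1800 bp in the 9 and 1200 to 3400 bp in the 6. Folds did not separate them, at 2.64 to 19.5 and 4.58 to 15.1. Among all genes whose NSC peak held 26 to 93 reads, 69.7% had no H3K4me3 call in neurons, against 9 of the 12 regulators in that range. With both marks required, the share was 70.4%. The regulators' count was near this background and is not a result about them as a group. Scaled by the 0.399 above, the NSC reads of the 9 correspond to 10.4 to 37.1 neuronal reads. The smallest listed neuronal H3K4me3 peak held 13 reads, and 8 of the 9 scaled values lay under 20, the 5th percentile of that list. A neuronal peak of unchanged relative strength at those 8 was thus near the limit of detection, and the loss of H3K4me3 there was not shown. Twist2, at 37.1 scaled reads, was the one above it. A neuronal H3K4me3 peak lay 5439 bp from its start site. Requiring absence within 10000 bp therefore left 8 of the 9, without Twist2. At the 6 genes that kept the mark, neuronal reads were 0.234 to 0.391 of those in NSCs with a median of 0.318, and over all 11424 genes that kept it the median was 0.306.

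**Figure D2:**
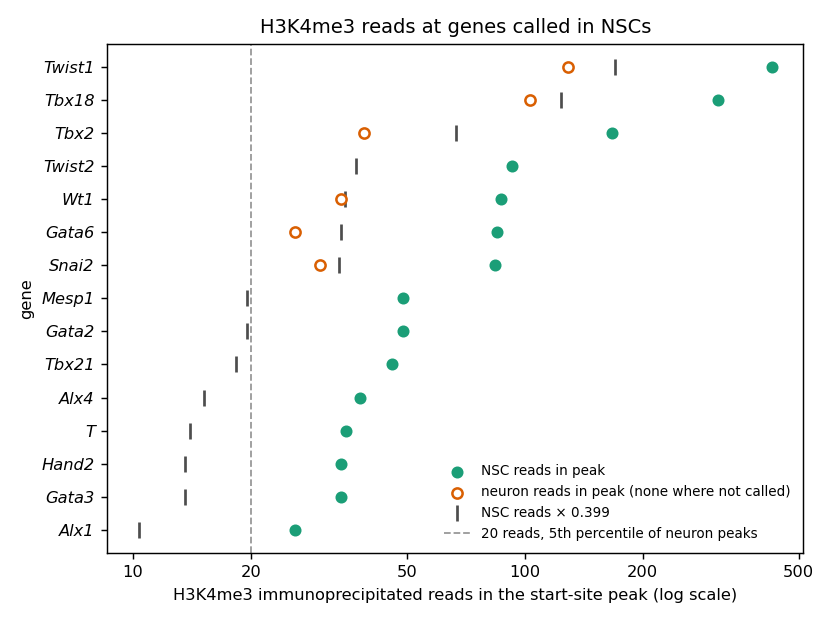
H3K4me3 reads in the start-site peak (log scale) of the 15 genes called in NSCs, ordered by NSC reads. Filled dots are NSC reads, open dots neuronal reads where a peak was called, ticks the NSC reads times 0.399, and the dashed line is at 20 reads. The 9 genes with no open dot run from Alx1 at 26 to Twist2 at 93 NSC reads.

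H3K27me3 was not called in neurons at 2 of the 20 regulators that had it in NSCs, T and Tbx2, against 25.3% of all genes marked in NSCs. The 2 shares are not matched on reads, of which the regulators' domains had the higher median. Of the 8 without it in NSCs, Tbx18 gained the call, against 4.4%. These names depend on the call. By the gene tables, and likewise at an FDR under 1e-20, the 2 genes without it in neurons were T and Myod1, and the gain was at Tbx21 or Gata2 respectively. Each of the 20 NSC domains was distinct, so no pair of these genes shared one. The domains at these genes were wide, with medians of 16400 bp (NSCs) and 9400 bp (neurons), beside 8400 and 5000 bp over all marked genes. With domains joined across gaps of up to 2000 bp, the medians at the regulators were 17900 bp and 15200 bp. Median reads were 407.5 in NSCs and 195 in neurons, beside 168 and 104. The median fold was 4.77 in NSCs and 4.03 in neurons, beside 3.25 and 3.10.

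At the 18 genes with H3K27me3 in both cell types, the neuronal start-site domain was narrower at 15, equal at Tbx21 and wider at Mesp1 and Alx1. The median ratio of widths was 0.604, and it was 0.662 over all 2687 genes with the mark in both. Narrower domains were seen at 76.7% of those genes, so the narrowing was not particular to the regulators. With 1 library per cell type and mark, a change in the cells and a difference between libraries cannot be told apart. Much of the narrowing came with more and shorter calls. Neurons had more than 1 peak over 14 of the 20 NSC domains, against 35.2% of all NSC domains at start sites, which are narrower. The median share of the NSC domain that neurons covered was 80.6% at the regulators and 68.0% over all. Within 50 kb of the start site, the median length under H3K27me3 was 28.4 kb in NSCs and 22.5 kb in neurons, lower in neurons at 17 of 20. Over all genes marked in NSCs it was 32.2 and 22.4 kb, lower at 78.7%.

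**Figure D3:**
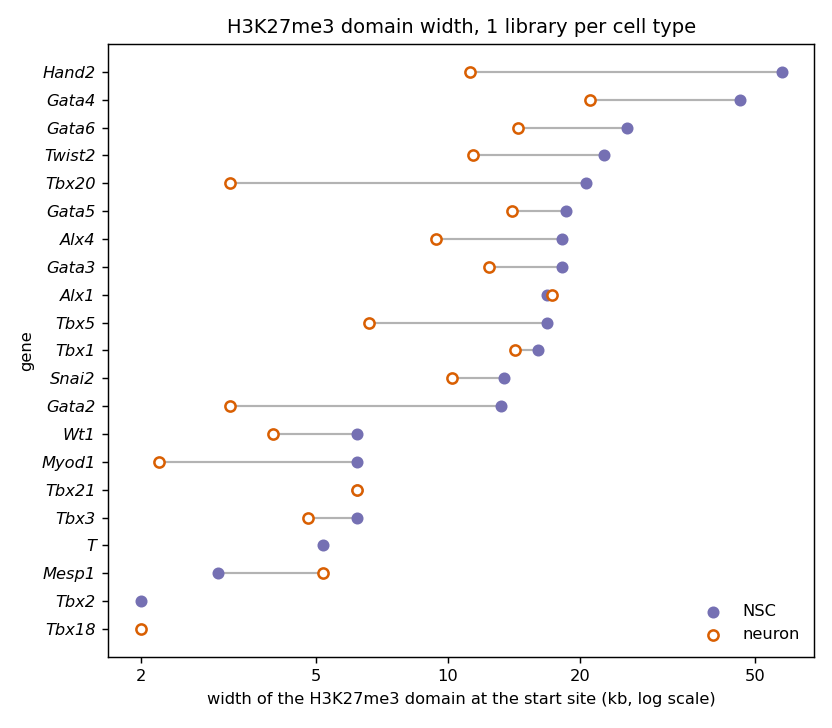
Width of the H3K27me3 domain at the start site (log scale) in NSCs (filled) and neurons (open), joined by a line where both were called. Tbx21 has the same width in both, so its open dot covers the filled one. Hand2 (57600 and 11200 bp) and Tbx20 (20600 and 3200 bp) show the widest gaps.

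**Figure D4:**
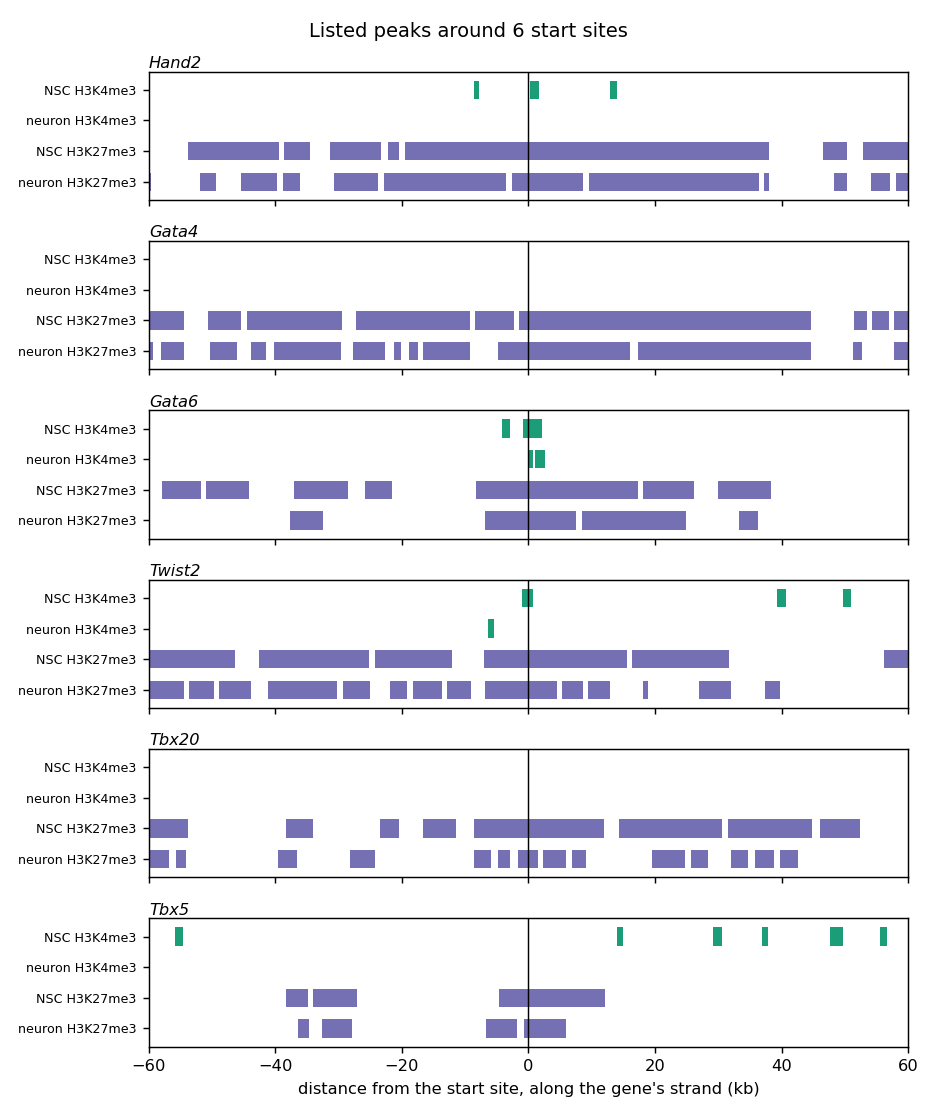
Listed peaks in the 4 libraries within 60 kb of 6 start sites, along each gene's strand, as bars to scale. The single NSC H3K27me3 domain over Hand2 meets 4 neuronal peaks and that over Tbx20 meets 5, while Tbx5 has H3K4me3 peaks in its gene body in NSCs only.

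The 6 genes with no mark at the start site were not all free of marks. The scoring used 1 outermost start site per gene, and genes with several promoters can carry marks elsewhere. Tbx15, of the skin and skeleton, had an H3K4me3 peak 12496 bp into the gene in NSCs, with 247 reads over 42 across 3200 bp, and one of 84 over 27 at 13096 bp in neurons. Runx2, of bone, had 3 H3K4me3 peaks over its gene body in NSCs and 2 in neurons, and no H3K27me3 there. Runx1, of blood stem cells, had 2 H3K4me3 peaks over the gene in each cell type and 1 H3K27me3 peak, of 70 reads over 34 in NSCs and 68 over 29 in neurons. Runx3, of T cells and sensory neurons, had 16400 bp of its gene under H3K27me3 in NSCs and 6400 bp in neurons. It also had 1 H3K4me3 peak over the gene in NSCs, which covered 1800 bp, and none in neurons. Prrx1, of limb mesenchyme, had 2 H3K27me3 peaks in the gene in each cell type. It had 1 H3K4me3 peak in the gene in neurons, of 35 reads over 16 across 1400 bp, and none there in NSCs. Meox2, of the somites, had no peak of either mark within 50 kb.

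Other regulators of mesoderm were taken from a second list. Of 18 scored, 12 had H3K4me3 in NSCs and 6 in neurons, against 70.4% and 61.7% of all genes. H3K27me3 was at 12 and 13, against 19.2% and 17.9%. H3K4me3 was not called in neurons at 6 of the 12, among them Eomes, Isl1 and Tal1. That share was 13.6% over all genes marked in NSCs and 42.2% over those with both marks. The NSC peaks of these 3 held 253, 45 and 53 reads. Those of Isl1 and Tal1 fell in the range of 26 to 93 reads, where 69.7% of all genes had no neuronal call. Nkx2-5, of the heart, had an NSC H3K27me3 domain of 36000 bp. Foxc1 and Foxc2, of the paraxial mesoderm, had H3K4me3 in both cell types, with 531 and 161 reads in NSCs and 85 and 31 in neurons. Partner and cofactor genes were listed too. All 13, among them the E-protein genes Tcf3, Tcf4 and Tcf12, the Runx partner Cbfb, Smad4 and the Polycomb genes Ezh2, Eed and Suz12, had H3K4me3 in NSCs and none had H3K27me3 in either cell type, beside the 70.4% and 19.2% of all genes in NSCs. In neurons the H3K4me3 of 1 of them, Zfpm1, a Gata cofactor of blood cells, was not called.

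Promoter sequence was available for 17 of the 28 genes, in 21 windows of 250 bases, matched by symbol only, so a window need not sit at the start site scored on mm9. The median CpG number was 16, beside 6 for all windows. Genes in the tables with both marks in NSCs had a median of 16, those with H3K4me3 alone 17, and those with H3K27me3 alone 5. The 3 regulators with H3K27me3 alone and a window, Tbx1, Tbx20 and Gata5, had 10 to 22 CpGs in 4 windows. Mesp1, with both marks, had 2 CpGs, and Runx2, with neither, had 0. Motifs were searched on both strands. The T-box element AGGTGTGA was in none of the 21 windows, against 1.12% of all windows in the table. At a share that low, its absence from 21 windows is not informative. The Gata motif AGATAA was found in the window of Hand2, against 9.99%. E-boxes (CANNTG) were found in 52.4% of windows, against 66.2%. TATAAA was found in the windows of Twist1 and Meox2, against 12.4%. All windows are a poor match, at a median GC of 52.4% against 62.8% for the regulators. Windows of genes with both marks in NSCs, at 63.2% GC, held AGATAA in 5.3%, E-boxes in 59.7% and TATAAA in 6.59%. With H3K27me3 alone, at 52.0% GC, these were 11.4%, 70.9% and 15.1%. The lower motif shares are thus not a result about the regulators.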

How the data were processed

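Chromatin was fixed, sheared to about 300 bp and precipitated, per the labels' protocols. Per the submitters' processing notes, reads went through FastQC, Bowtie and SAMtools, and peaks through SICER, on mm9. Versions and settings were not given in the sources used here. Per peak, the authors deposited read counts (immunoprecipitated and input), a p-value and FDR, and a fold ratio over input; the fold equals the count ratio times a constant per library (1.02, 0.993, 1.40 and 1.05 for NSC H3K4me3, neuron H3K4me3, NSC H3K27me3 and neuron H3K27me3). All listed peaks had an FDR under 0.001. Peak and gene positions are other columns the authors deposited, printed as given.

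The start site was the 5′ end of each gene in the deposited gene tables. The peak overlapping or nearest it was taken, and a gene was marked at 1000 bp or less. The universe of 18778 genes leans towards genes near peaks. Intervals are exact (Clopper-Pearson, 95%) on immunoprecipitated against input reads, and cover counting error only. Reads outside listed peaks are unknown.

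The members and the lists were chosen with earlier results of these data known. All 28 scored members are named. Described in full were those whose calls differed between cell types, those with the widest H3K27me3 domains and those with H3K4me3 alone. RefSeq promoters of GRCm38.p6 were matched by symbol. Promoters shown were taken among genes with a window. Twist2 was first of its course by NSC H3K4me3 width (1800 bp) and Tbx20 by NSC H3K27me3 width (20600 bp). By H3K27me3 width Hand2 (57600 bp) would have come before Twist2 (22600 bp). Twist1, T and Tbx18 were alone in their courses. Alternatives were the gene-table call, windows of 500 and 5000 bp, FDR under 1e-20, equal peak numbers, chromosome 1 left out, absence within 10000 bp, and merged domains. The assignment step was tested on simulated data. Tools were scipy 1.17.1, numpy 2.4.6, pandas 2.3.3 and Python 3.11.15.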

Additional observations from a re-analysis of the deposited data

How the results depend on the processing

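Of 76 recalculated values, 65 stayed within 1.5 times the reported one, and the cause of the others was not tested except where named. The limit includes 1.5 itself, and some values could hardly move, such as the gains of H3K4me3, at 0 in every setting. Counts were compared and not genes, so the tally is not a measure of stability. With the peak that the deposited gene table names, H3K27me3 stood at 8 regulators in NSCs and 7 in neurons, both marks at 4 and 2. Under an FDR of 1e-20, H3K4me3 stood at 2 in neurons and both marks at 7 and 0, with no share of all genes computed beside them. With equal peak numbers by fold, the 9 genes without a neuronal H3K4me3 call became 5, and the H3K27me3 gain at Tbx18 became 0, as it did within 500 bp of the start site, since its peak lies 905 bp away. By the gene tables the gain was at Tbx21 instead and at the FDR limit at Gata2, and in both T and Myod1, not Tbx2, were without H3K27me3 in neurons. Joining domains across gaps of up to 2000 bp raised the median width from 9400 to 15200 bp in neurons and from 16400 to 17900 bp in NSCs, by construction. The gene-table call gave 6 genes without neuronal H3K4me3 and the FDR limit 8, and each shared 4 with the 9. Those not shared were Gata6 and Twist1 by the gene tables, and Tbx2, Gata6, Snai2 and Wt1 at the FDR limit. All of these kept the mark by the main call. Tbx21, Twist2, Mesp1 and Alx4 lacked the neuronal call in 4 settings, which were the main one, the gene tables, the FDR limit and equal peak numbers. Requiring absence within 10000 bp left 8 of the 9, without Twist2, whose nearest neuronal H3K4me3 peak lay 5439 bp away. No paired analysis was possible because each group has 1 library and no value comes from a test. Reads outside listed peaks are unknown, so the absence of a call sets no upper limit on the signal there.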
